A study of Arabidopsis thaliana with 37 samples.

Results

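The genes described here were brighter in seedlings of the accession Col than in seedlings of the accession Ler at both ages measured. They were found as 151 probe sets among 6112 bright enough to test, of 8247 on the array. Each had a Col minus Ler mean log2 difference of at least 1 at 9 days and again at 21 days, with every Col array above every Ler array at each age. One further probe set, for AT2G25450, met the rule and was left out by name. The members were thus chosen by the Col and Ler values, and those differences are given below as a description with no test. Of the members, 79 have 1 gene in the platform annotation (77 loci, since CP5 and AT1G78820 have 2 member probe sets each), 1 has several and 71 are not listed there. Of the 79, 76 are for protein-coding genes, of 2680 such probe sets tested, and 3 for small nucleolar RNA genes (AT5G44286, AT3G47342 and AT1G03746), of 11 tested.

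RNA of seedlings was measured on 37 Affymetrix arrays, 1 sample per array, in a study of wild-type plants and of mutants in small RNA genes. The rule used 3 Ler and 3 Col arrays at 9 days, and at 21 days 3 arrays of a first Ler set, called Ler (1), and 3 Col arrays. The other 25 arrays did not enter the rule: 4 ago1-10 and 4 ago1-11 arrays at 9 days, 3 ago1-10, 3 ago1-11, 4 Ler (2) and 4 dcl1-9 arrays at 21 days, and 3 ago1-10 arrays at 35 days. The ago1 alleles carry mutations in ARGONAUTE1, whose protein is guided by microRNAs to the transcripts it cuts, and dcl1-9, also called caf, is a mutant allele of DICER-LIKE1, which makes microRNAs. The labels do not name the accession in which any mutant was raised. The ago1-10 arrays carry strain code MR44, except 1 array at 9 days and all 3 at 35 days, which carry MR49. The 9-day ago1-11 arrays carry 4 different codes (MR51, MR53, MR54 and MR57), and the 21-day ago1-11 arrays all carry MR57. Replicates are biological per the design text, and the labels do not say whether they were separate cultures. No probe set carries the name of AGO1 or DCL1, so the level of the mutated genes could not be checked.

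Ler and Col are the laboratory lines Landsberg erecta and Columbia. Natural accessions of Arabidopsis differ in gene content, and disease resistance genes, glycosyltransferases and other members of tandem families are known to be among the most variable. Probes on an array are designed from one genome, usually that of Col, so a transcript with sequence differences can bind them poorly. In these data less RNA in Ler, fewer cells that hold it and a poorer match of Ler RNA to the probes cannot be told apart.

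Array medians ran from 11.3 to 30.2 signal units and were scaled to 19.1. Signals below are these scaled values, and differences are between means of log2(signal + 1.2). Of 9 markers of green tissue 7 were measured, and their summed signal had group medians from 6927 (ago1-10 at 21 days) to 21716 (Ler at 9 days), with 15595.5 in Col at 9 days and 15691 at 21 days. Of 5 root markers 0 were measured. Of 9 flower and pollen markers 4 were measured, with sums of 114 to 251 on all arrays. One array stood apart for several members. Ler (2) replicate 1 is named Ler21 in the labels, while the other 3 arrays of that group are named WT21, and results on Ler (2) are given with and without it. For several members on chromosome 1 the WT21 arrays, labelled Ler (2) like replicate 1, were near Col, against that label. Whether these plants are Ler throughout was not tested, so a place between Ler and Col in Ler (2) or dcl1-9 is that of the arrays so labelled.

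The Col minus Ler difference of the members ran from 1.03 to 6.89 at 9 days, with a median of 1.78, and from 1.00 to 6.06 at 21 days, with a median of 1.77. It was at least 3 at both ages in 15 members and under 1.5 at one age or both in 71. It was larger at 9 days in 79 members and larger at 21 days in 72. The rule's conditions were met at 9 days by 5.81% of all probe sets tested, at 21 days by 4.68% and at both ages by 2.49%. Just inside the threshold stood ECS1, which encodes a cell wall protein (1.03 at 9 days, 2.27 at 21 days), and AT2G37120 (1.03 and 1.35). Just outside stood AT2G28660 (0.99 at both ages) and AT4G38540 (1.46 and 0.98). In 49 members both scaled Ler means lay under 12.2, the lower limit used, before scaling, to keep probe sets. The size of their difference thus depends on the constant added before the log. With 16 added in place of 1.2 the difference was above 0 at both ages in all 151 members and at least 1 at both ages in 84.

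**Figure D1:**
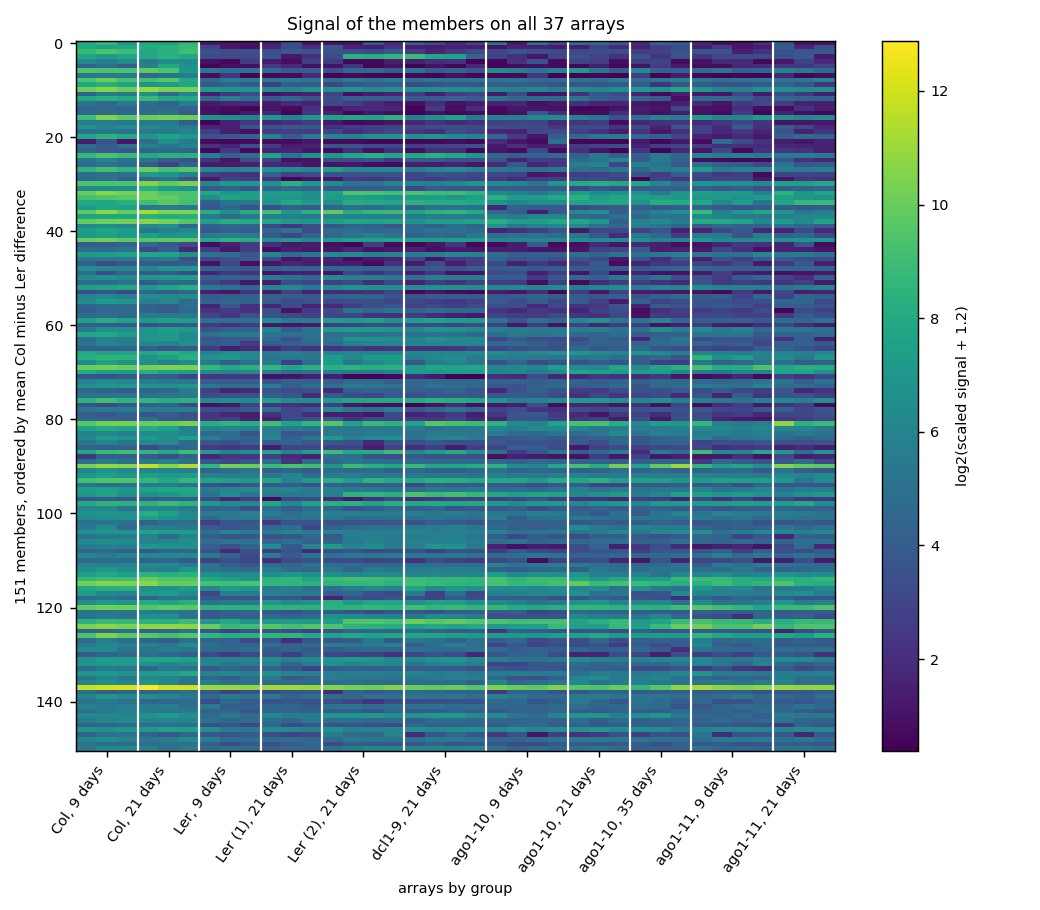
Colour gives log2(scaled signal + 1.2) of the 151 members (vertical axis, numbered from 0 by falling mean difference) on all 37 arrays (horizontal axis, grouped, white lines between groups). Within each age the 3 Col arrays are brighter than the 3 Ler or Ler (1) arrays in every line, as the rule requires, by a median of 1.78 at 9 days and 1.77 at 21 days, while in a few lines the Ler (2) and dcl1-9 arrays are as bright as Col.

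Among named genes AT5G49440, bright in Col and near background in Ler, had the largest mean difference over both ages. Its signal was 431, 656 and 489.7 on the 9-day Col arrays and 246, 327 and 532 on the 21-day Col arrays, against 10.2, 8.35 and 10.3 in 9-day Ler and 9.68, 14.1 and 10.8 in Ler (1). No array outside Col exceeded the highest Ler (1) value of 14.1, and the differences were 5.59 and 4.80. AT2G25510 gave 681, 1025 and 582 at 9 days and 578, 774 and 244 at 21 days in Col, against 24.0, 51.2 and 50.1 in 9-day Ler and 41.1, 47.9 and 37.4 in Ler (1). Its Ler signal was above background, so this difference (4.19 and 3.48) depends less on the constant added (3.75 and 3.10 with 16). AT5G44286, annotated as a small nucleolar RNA, was also high in Col, with 684, 643 and 634 at 9 days and 923, 646 and 121 at 21 days, where replicate 3 was far below the others but above all Ler (1) arrays at 25.0, 14.0 and 16.6. Its 9-day Ler arrays read 39.5, 29.3 and 35.9, above the limit of 12.2. Larger differences than those of AT5G49440 at both ages were found only in 2 probe sets that are not in the annotation, one with 6.89 and 6.06 and one with 6.09 and 6.06. The Col arrays of the latter lay between 184 and 439, and none of the other arrays exceeded 14.2.

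AT2G33220 encodes a protein related to GRIM-19, a subunit of mitochondrial respiratory complex I. Its signal in Col was 250.1, 327 and 244 at 9 days and 444, 250.2 and 259 at 21 days, against 23.2, 55.5 and 30 in 9-day Ler and 12.8, 22.2 and 11.3 in Ler (1). The difference was 2.96 at 9 days and 4.27 at 21 days. All mutant and Ler (2) arrays lay between 0.663 and 37.5, under the highest Ler array and far under Col.

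AT4G19500 is the downy mildew resistance gene RPP2A, which encodes an NLR receptor that detects pathogens inside the cell and is known from Col. It gave 21.2, 13.3 and 13.2 in 9-day Col and 20.6, 24.6 and 19.7 in 21-day Col, and 0.3, 4.30 and 0.434 in 9-day Ler and 1.70, 2.00 and 1.01 in Ler (1). Every array outside Col lay under the lowest Col array, and with 16 added the differences of 2.81 and 3.05 became 0.85 and 1.1. The protein kinase gene AT1G65190 (3.67 and 3.18) and the GDSL lipase gene AT4G01130 (3.64 and 3.32) had the same form, dim in Col and near background in Ler. The PR-1-like gene AT4G07820 (2.77 and 4.55) was also near background in Ler, but its Col arrays ran from 20.3 to 99.6. With 16 added the difference of AT4G01130 was 1.12 and 1.17. AT1G61190, also of the NLR family, was bright in Col, with 236, 161 and 213 at 9 days and 239, 325 and 244 at 21 days, against 9.00, 8.22 and 7.67 in 9-day Ler and 10.6, 1.06 and 3.21 in Ler (1). Its difference was 4.41 at 9 days and 5.77 at 21 days, and its level in Ler (2) and dcl1-9 is given below. The NLR genes LOV1 and AT1G61180, which are not members, were picked after their values were seen and had the other order at 21 days. Their mean log2 signals were 2.60 and 4.86 in Col and 4.36 and 5.21 in Ler (1), a small gap for AT1G61180. The order of other NLR genes was not counted. The jacalin lectin gene AT1G52100 differed by 3.56 and 1.54.

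Several named members encode enzymes that attach sugars or glutathione to small molecules. The glycosyltransferase gene AT4G15260 differed by 3.40 at 9 days and 2.97 at 21 days, UGT73B1 by 3.39 and 1.44, UGT87A2 by 2.75 and 1.39, and UGT71C2 by 1.27 and 1.05. For UGT87A2 the Col arrays read 179, 282 and 177 at 9 days and 132, 189 and 151 at 21 days, and the Ler arrays 29.5, 30.4 and 29.4 at 9 days and 87.2, 47.4 and 48.3 at 21 days. All Ler (1) arrays lay above all 9-day Ler arrays, while the Col arrays of the ages overlapped, with a mean of 213 at 9 days and 157 at 21 days. The glutathione transferase gene GSTU16 had the opposite order, 1.61 at 9 days and 2.44 at 21 days. UGT87A2 and UGT71C2 were set beside the others after their values were seen, and these families were not counted over all probe sets. Among glycosyltransferase genes that are not members, UGT74B1 differed by -0.36 and -0.39. At 21 days UGT85A2 had mean log2 signals of 7.02 in Col and 6.53 in Ler (1), and UGT80B1 4.75 and 4.97.

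MCCA and AT1G21400 encode mitochondrial enzymes of branched-chain amino acid breakdown. MCCA, the alpha subunit of methylcrotonyl-CoA carboxylase in leucine breakdown, gave 116, 135 and 144 in 9-day Col, 109, 64.2 and 85.5 in 21-day Col, 72.0, 36.9 and 50.1 in 9-day Ler and 62.0, 20.4 and 45.5 in Ler (1). Its differences were 1.34 and 1.1, and at 21 days the lowest Col array (64.2) stood barely above the highest Ler array (62.0). AT1G21400, a component of the branched-chain keto acid dehydrogenase, differed by 1.78 and 1.77.

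Other members with large differences had varied roles. AT1G62510, of the lipid transfer and protease inhibitor family, differed by 3.29 and 3.52, and AT4G22460 of the same family by 2.15 and 2.48. AT1G12010, which encodes an ACC oxidase of ethylene synthesis, differed by 3.53 and 2.24, with Ler near background. The GDSL lipase gene AT2G03980 (2.43 and 3.08), the glycine-rich protein gene AT2G05540 (2.53 and 2.57), the SWIB domain gene AT2G14880 (2.57 and 2.52) and the transporter gene AT2G16660 (3.17 and 1.97) also stood among the 30 largest by the mean of both ages. So did AT4G01590, AT4G02540, AT4G33960, AT1G76960, AT3G47342, AT4G24340, AT2G03390, AT2G21860 and AT1G34200, each between 1.81 and 4.21 at both ages. M17, a late embryogenesis abundant protein gene, differed unequally between ages, by 1.33 at 9 days and 4.77 at 21 days. Its 9-day Col arrays read 1.41, 10.7 and 0.914 and its 21-day Col arrays 27.2, 93.4 and 46.5, against 0.4, 0.379 and 0.434 in 9-day Ler and 0.448, 0.528 and 1.01 in Ler (1). At 9 days all its Col arrays lay under 12.2, and at 21 days all of them lay above it.

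**Figure D2:**
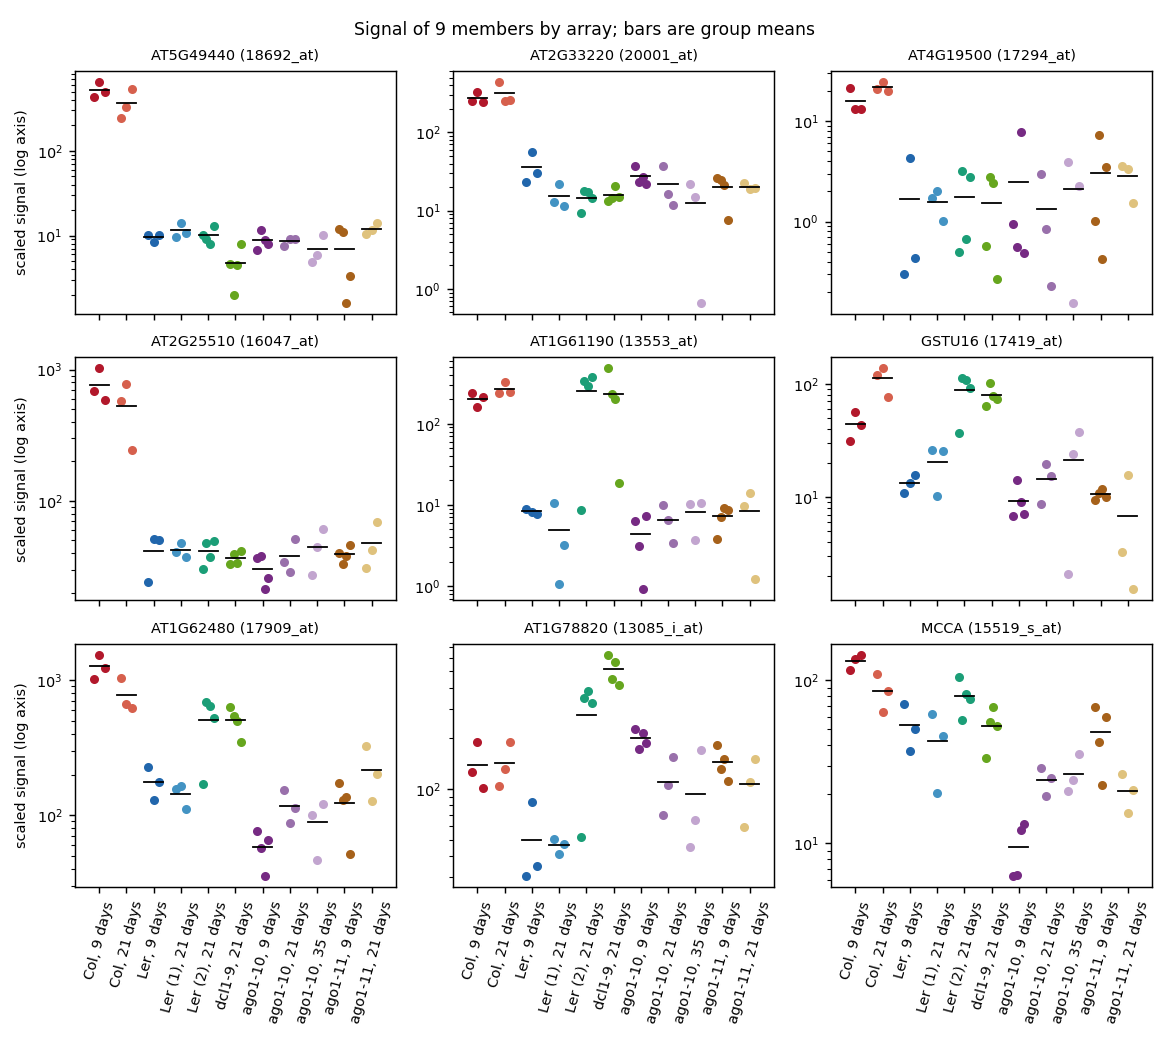
Scaled signal (vertical axis, log scale) of 9 members on every array, with 1 point per array and a bar at each group mean. For AT5G49440, AT2G25510, AT2G33220 and AT4G19500 all Col arrays lie above all other arrays, though those of AT4G19500 are dim. For AT1G61190, GSTU16 and AT1G62480 the Ler (2) arrays named WT21 and most or all dcl1-9 arrays sit near Col. Ler (2) replicate 1 sits lower there, between 8.70 and 170 on the 3 panels.

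Several member genes had a further probe set on the array that the rule did not take. There were 12 such probe sets, 8 of them bright enough to test and 4 too dim (3 of AT4G07820 and 1 of AT5G44286). Of the 8, those of AT1G09500 (2.13 and 1.61) and AT3G47342 (2.29 and 1.40) differed by at least 1 at both ages, and that of AT1G22750 by 0.70 and 0.50. The other 5 differed by under 0.5 in size at both ages. The second probe set of AT3G47342 was dim, with group means of 2.41 and 4.12 in Ler and 13.9 and 13.1 in Col. That of AT1G09500 varied between arrays at 21 days, with 114 ± 102 in Ler (1) and 206 ± 40.6 in Col (SD, n = 3 each). For PSBW, a small subunit of photosystem II, the member probe set read 4265 ± 446 in 9-day Col and 1995 ± 146 in 9-day Ler (SD, n = 3 each). Its second probe set read 3380 ± 459 in Col and 4154 ± 444 in Ler, so the 2 probe sets ordered the accessions in opposite ways at 9 days (1.09 and -0.30). At 21 days the member differed by 1.26 and the second probe set by 0.11. For AT2G45300, which encodes the EPSP synthase of aromatic amino acid synthesis, the member differed by 1.46 and 2.52 and the second probe set by -0.15 and -0.09. The second probe sets of AT2G03390 (0.48 and 0.34) and AT1G23460 (0.43 and -0.18) likewise differed less than their member probe sets, that of AT1G23460 at group means of only 13.3 to 23.0. That of AT4G24340 (-0.39 and -0.41) had group means of 11.2 and 8.99 in Ler and 8.70 and 6.56 in Col, all under the limit of 12.2, and at that level it says little on the gene.

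**Figure D3:**
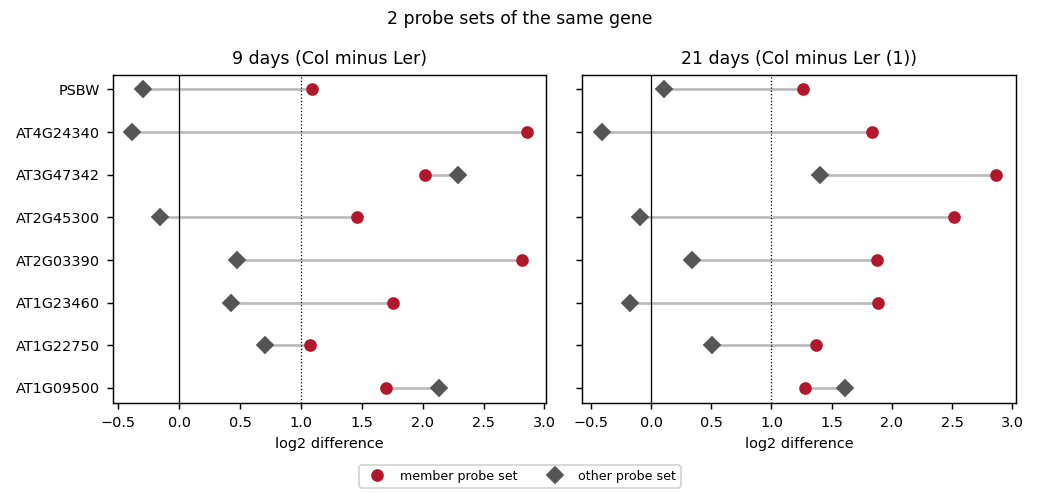
Col minus Ler log2 difference at 9 days (left) and 21 days (right) for the 8 member genes (vertical axis) with a second tested probe set. Red circles are member probe sets and grey diamonds the others, and the dotted line marks the rule's limit of 1, which the diamonds of AT1G09500 and AT3G47342 pass in both panels and the other 6 in neither.

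The letters in a probe set's name tell how its probes were chosen. Sets marked i made up 7.28% of members and 2.29% of all probe sets tested, those marked r 3.31% and 1.06%, and those marked f 1.99% and 1.26%. Sets with no letter were equally common in both (73.5%), and sets marked s, shared by similar transcripts, made up 13.2% of members and 19.3% of all.

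By chromosome, the members with 1 gene were 26 of 603 tested on chromosome 1 (4.31%), 23 of 1000 on chromosome 2 (2.30%), 1 of 146 on chromosome 3, 25 of 822 on chromosome 4 (3.04%) and 4 of 124 on chromosome 5.

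In the ago1 mutants most members sat at the level of Ler. A member's place was measured as the percent of the way from the Ler mean to the Col mean of the same age on the log2 scale, with 0 at Ler and 100 at Col. Since the Ler and Col arrays are those that chose the members, no test was made. The median member stood at -6.14% in ago1-10 and -1.29% in ago1-11 at 9 days, and at -2.27% and 2.77% at 21 days. The 35-day ago1-10 arrays, placed on the 21-day scale, stood at -2.65%. In the 5 ago1 groups between 13 and 20 members lay at 50% or more, and 107 members lay under 50% in every one of them.

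The mutants were also set array by array against the same Ler and Col arrays. All 4 ago1-10 arrays lay below all Col arrays in 134 members at 9 days, where 17.5% of all probe sets tested had that order, and all 4 ago1-11 arrays in 133, beside 11.1% of all. At 21 days the counts were 120 for ago1-10 (21.9% of all) and 128 for ago1-11 (16.1% of all), and 127 for the 35-day arrays (18.5% of all). Every array above every Ler array was found in 21 members for 9-day ago1-10 (11.6% of all), 13 for 9-day ago1-11 (6.02%), 27 for 21-day ago1-10 (15.1%), 19 for 21-day ago1-11 (7.51%) and 14 for 35-day ago1-10 (10.4%). In 67 members all 6 Col arrays exceeded all 31 other arrays, an order that 1.33% of all probe sets tested showed (81, with those 67 among them). The rule itself took members with high Col and low Ler arrays. The counts in this paragraph are thus partly set by the rule and cannot be weighed against the shares over all probe sets.

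A few members stood more than 50% of the way to Col in several ago1 groups. Both probe sets of AT1G78820, a mannose-binding lectin gene, were at 70.3% or more of the way in all ago1 groups at 9 and 21 days. The first read 227, 174, 216 and 188 in 9-day ago1-10 and 183, 132, 151 and 112 in 9-day ago1-11, against 126, 191 and 101 in Col and 30.4, 84.1 and 35.0 in Ler. All mutant arrays at that age exceeded all Ler arrays and overlapped Col. AT4G02850 stood at 52.9% to 107% of the way in the same 4 groups. At 9 days it was dim, with 6.23, 9.36, 11.4 and 9.90 in ago1-10, and all arrays of both ago1 alleles lay below the lowest Col array of 16.2. AT1G12010 was near background in Ler at 2.24, 1.79 and 0.845 at 21 days, but read 48.3, 62.5 and 6.37 in ago1-10 and 36.0, 12.0 and 15.9 in ago1-11, against 14.0, 6.05 and 19.0 in Col. MSRB5, a methionine sulfoxide reductase gene, was at 92.3% and 84.3% of the way in ago1-10 and ago1-11 at 21 days and at -12.5% and -34.7% at 9 days.

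Some members had means below those of both accessions in ago1 groups. ECS1 read 349, 90.2, 67.4 and 238 in 9-day ago1-10 and 369, 160.4, 226 and 90.6 in 9-day ago1-11, all below its lowest 9-day Ler array of 386. AT1G09500, of the alcohol dehydrogenase-like family, stood between -158% and -187% of the way in the 9- and 21-day groups of both ago1 alleles. PSBW stood at -73.2% in 9-day ago1-10 and -111% in 21-day ago1-10, where the summed green-tissue markers had medians of 11403 and 6927, against -13.5% and -11.9% in ago1-11, with marker medians of 17858.5 and 15803. The part of green tissue in this was not tested.

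The second 21-day Ler set and dcl1-9 held more members at 50% or more of the way to Col than the ago1 groups. The median member stood at 13.1% of the way in Ler (2) and 14.2% in dcl1-9, but 39 members in Ler (2) and 35 in dcl1-9 lay at 50% or more, 27 of them in both. Without Ler (2) replicate 1 the median was 12.3% with 44 members at 50% or more, 29 of them also in dcl1-9. All Ler (2) arrays exceeded all Ler (1) arrays in 29 members (8.77% of all probe sets tested had that order), or in 45 (13% of all) without replicate 1. All dcl1-9 arrays did so in 41 (11% of all). All Ler (2) arrays lay below all Col arrays in 116 members (12.5% of all), or in 119 (17.2% of all) without replicate 1, and all dcl1-9 arrays in 116 (16.9% of all). The rule took members with low Ler (1) and high Col arrays. Other arrays are thus expected above Ler (1) and below Col more often in members than in all probe sets. The medians above 0 may be raised by the same choice. With Ler (2) in place of Ler (1) at 21 days, 100 of the 151 members still met the rule.

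Of the 39 members at 50% or more in Ler (2), 17 have 1 gene and so a chromosome, and the others have no position here. Of these 17, 14 were on chromosome 1, 2 on chromosome 2 and 1 on chromosome 4. For comparison, chromosome 1 held 26 of all 79 members with 1 gene and 603 of 2695 such probe sets tested. The share of all probe sets at 50% or more was not counted by chromosome. Without Ler (2) replicate 1 chromosome 1 held 13 of the 16 with a gene among 44, and in dcl1-9 13 of the 17 with a gene among 35. These counts are descriptions of positions known from the gene names and carry no test.

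On chromosome 1, 7 members lay between AT1G59700 and AT1G62510, a stretch of 69 tested probe sets that was picked out after its values were seen. It holds GSTU16 (AT1G59700), AT1G61190, AT1G62050, AT1G62330, AT1G62422, AT1G62480 and AT1G62510. All of these but AT1G62510 stood at 68.5% to 83.3% of the way to Col in Ler (2) and at 74.5% to 91.0% in dcl1-9, and without Ler (2) replicate 1 at 78.6% to 105%. AT1G62510 stood at 34.8% in Ler (2) and -6.95% in dcl1-9. AT1G62050 was dim, at 9.76, 11.5 and 12.8 in 21-day Col and 0.986, 0.95 and 1.18 in Ler (1). Its percent of the way thus depends on the constant added. In the ago1 groups no member of the stretch was above 33.3% at 9 days, 49.4% at 21 days or 51.7% at 35 days. Among the 62 other tested probe sets of the stretch, all Ler (2) arrays exceeded all Ler (1) arrays in 4, or in 9 without replicate 1. Over all probe sets tested the shares were 8.77%, and 13% without replicate 1, so these counts lay near the background.

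The resistance gene AT1G61190 showed the split by array. In Ler (2) it read 8.70 on replicate 1 and 332, 288 and 373 on the 3 arrays named WT21. Replicate 1 lay among the Ler (1) arrays and the other 3 within or just above the range of the 21-day Col arrays. In dcl1-9 it read 484, 234 and 199.7 on the first 3 arrays and 18.7 on replicate 4. Every ago1 array lay at or under 13.9.

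AT1G62480, related to a vacuolar calcium-binding protein, gave 169.5, 691, 646 and 522 in Ler (2) and 632, 537, 499 and 347 in dcl1-9, against 156, 164 and 112 in Ler (1) and 1031, 662 and 624 in Col. Only replicate 1 of Ler (2) was near Ler (1), and all dcl1-9 arrays were above it. GSTU16 gave 36.9, 113, 108 and 91.9 in Ler (2) and 63.6, 102, 77.8 and 73.8 in dcl1-9, against 25.9, 10.2 and 25.4 in Ler (1) and 120.1, 137 and 76.5 in Col. Its replicate 1 was again the lowest of Ler (2), between the Ler (1) and Col arrays.

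The same replicate stood at Ler (1) level for AT1G78820, further along chromosome 1. Its first probe set read 51.6, 348, 384 and 323 in Ler (2), where Ler (1) read 50.6, 41.2 and 47.2. The arrays named WT21 and all dcl1-9 arrays (629, 451, 566 and 414) exceeded the Col arrays (104, 132 and 191). Over all 151 members, replicate 1 had 28 at 50% or more of the way and the other Ler (2) arrays 40, 46 and 42. Within the stretch it had 1 of 7, and each of the others 6. Among dcl1-9 arrays, replicate 4 had 30 members at 50% or more and the others 38, 44 and 46.

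The members beside the stretch differed among themselves. AT1G52100 (60.2%) and AT1G55450 (121%), a methyltransferase-like gene, lie just before it and were also past 50% of the way in Ler (2), and at 61.4% and 152% in dcl1-9. CP5 (AT1G64720) and AT1G65190 lie just after it, and neither was above 5.76% in Ler (2) or above 0 in dcl1-9. Replicate 1 did not stand low in AT1G21400, where it gave 83.1 against 37.7, 29.9 and 52.4 on the others and 50.7, 43.9 and 52.5 in Col. MCCA, also on chromosome 1, stood at 90.6% of the way in Ler (2), with replicate 1 the highest at 105.

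**Figure D4:**
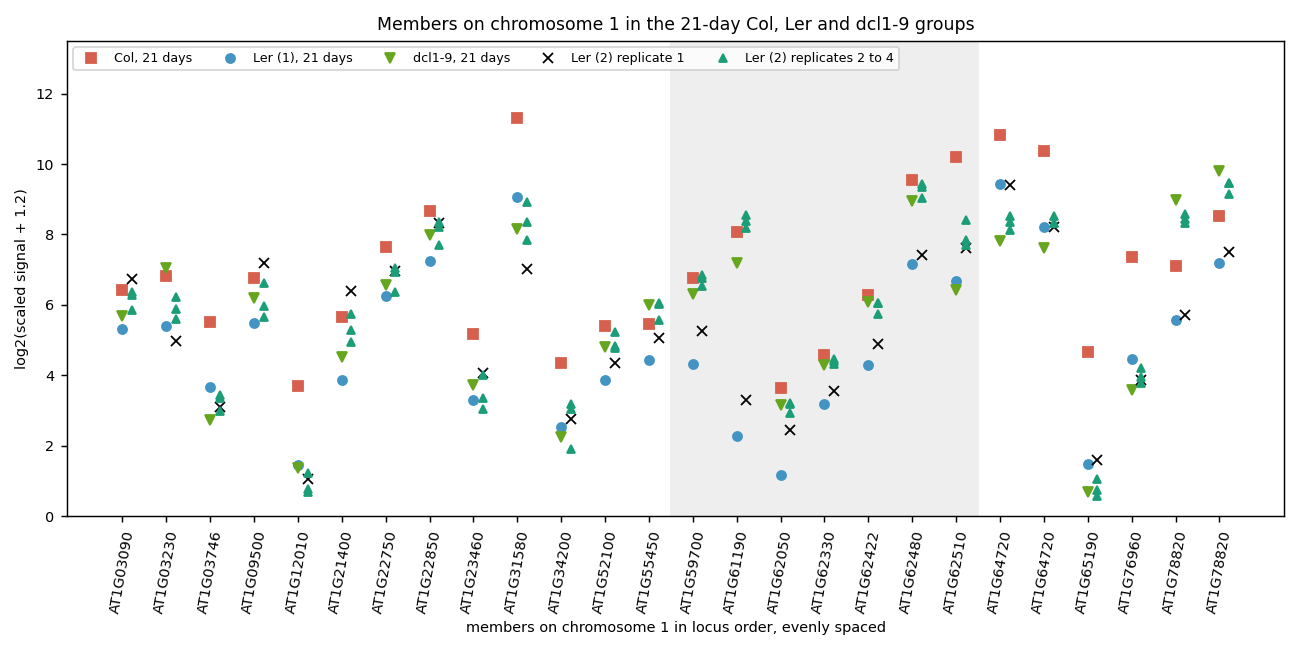
Log2(scaled signal + 1.2) at 21 days of the 26 member probe sets on chromosome 1, evenly spaced in locus order, as group means of Col, Ler (1) and dcl1-9 and as single Ler (2) arrays. In the shaded stretch from AT1G59700 to AT1G62510 Ler (2) replicates 2 to 4 sit near Col and replicate 1 lower, except for AT1G62510, where all Ler (2) arrays lie between 197 and 338 on the signal scale and Col between 1077 and 1337.

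Comparisons between groups outside the rule were tested with limma over all 6112 probe sets, with Benjamini-Hochberg adjustment and a limit of 0.05. Between dcl1-9 and Ler (2) at 21 days 1 member was higher in dcl1-9, beside 0.671% of all probe sets tested, and 0 were lower, beside 0.131%. At an unadjusted p under 0.05 there were 22 members, 14.6%, beside 9.46% of all. The member was MSRB5, which read 148, 121, 144 and 167 in dcl1-9 and 52.9, 46.5, 44.2 and 67.1 in Ler (2). The groups did not overlap, and the difference was 1.45 with an SE of 0.28 (limma, adjusted p = 0.0044). The call held without any 1 array, Ler (2) replicate 1 included. The median difference over the members was -0.02, as over all probe sets.

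The alleles ago1-10 and ago1-11 differed in some members at 9 days. In ago1-11 14 members were higher, 9.27%, where 6.58% of all probe sets were, and 6 lower, 3.97%, where 6.61% of all were, so the shares lay near the background. The median difference was 0.08 over the members and 0.00 over all probe sets. The largest difference was that of the glycine-rich protein gene AT2G05540. It read 23.8, 14.5, 1.36 and 13.8 in ago1-10 and 453, 62.2, 147 and 222 in ago1-11, against 285, 96.5 and 269 in Ler and 873, 1709 and 975 in Col. All ago1-11 arrays lay above all ago1-10 arrays, and the difference was 3.99 (SE 0.61, limma, adjusted p = 5.2e-05). All 4 ago1-10 arrays lay under all Ler arrays, and the ago1-11 arrays overlapped Ler.

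MCCA followed the same order. Its ago1-10 arrays read 6.33, 6.40, 12.0 and 13.1 and its ago1-11 arrays 68.9, 42.1, 22.9 and 59.4, without overlap, with a difference of 2.17 (SE 0.32, limma, adjusted p = 3.5e-05). At 21 days its arrays read 29.0, 19.6 and 25.2 and 26.6, 15.3 and 21.3, which overlapped. The difference between alleles moved by -2.40 from 9 to 21 days, and MCCA was the 1 member whose allele difference was called as lower at 21 days, beside 0.0818% of all, and 0 were called as higher, beside 0.147% (limma, SE 0.49, adjusted p = 0.026). That call was lost with only the 4 groups compared in the model (adjusted p = 0.10), without ago1-11 replicates 1 or 4 at 9 days (0.052 and 0.065) and without ago1-11 replicate 2 at 21 days (0.078), and the test was added after the comparisons by age were seen. Both probe sets of CP5, a gene of the START lipid-binding protein family, were higher in ago1-11 (2.19 and 2.08, limma, adjusted p = 1.3e-04 and 6.5e-04). The first read 72.6, 77.6, 68.6 and 166 in ago1-10 and 575, 279, 275 and 660.4 in ago1-11.

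AT3G47342, annotated as a small nucleolar RNA, was lower in ago1-11 (-1.70, limma, adjusted p = 0.0031), at 14.4, 24.8, 16.3 and 19.9 against 103, 39.1, 57.2 and 66.1 in ago1-10. The calls of AT2G05540, MCCA, CP5 and AT3G47342 in this comparison held without any 1 array. The glycosyltransferase gene AT2G36970 was also lower (-1.07), a call lost without ago1-11 replicate 4. AT1G12010 (1.58), AT2G03390 (1.04) and AT4G33960 (1.02) were higher, but each of these calls was lost without single arrays. For AT4G33960 these were ago1-11 replicate 1 and ago1-10 replicate 3, for AT2G03390 ago1-11 replicate 4 and ago1-10 replicates 2, 3 and 4, and for AT1G12010 ago1-11 replicates 1, 2 and 3 and ago1-10 replicates 1, 3 and 4. With only the groups compared in the model the calls of AT4G33960, AT1G12010 and AT2G36970 were lost, with 16 added those of AT1G12010 and AT2G36970, with strain code MR44 only those of AT1G12010 and AT2G03390, and with no filter that of AT1G12010. The remaining called members, 7 higher and 4 lower, are not in the annotation. They ran from -2.13, in the probe set with the widest gap between Col and Ler, to 3.19. Without ago1-11 replicate 4 the members called lower were 3 and without ago1-10 replicate 1 they were 2. Of 7 green-tissue markers 2 were called higher in ago1-11 at this age, and the part of green tissue in these differences was not tested.

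At 21 days 4 members were higher in ago1-11, 2.65%, beside 4.16% of all, and 6 lower, 3.97%, beside 3.29% of all, with a median of 0.12 over the members and -0.04 over all. PSBW was higher (1.25, SE 0.31, limma, adjusted p = 0.012), at 2079, 1843 and 1828 in ago1-11 and 756, 669.7 and 1016 in ago1-10. The groups did not overlap, and the call was lost without ago1-10 replicate 2. In the same comparison 5 of 7 green-tissue markers were higher, and their part in the difference was not tested. AT2G14880 was higher (1.23, limma, adjusted p = 0.0022) and kept its call without any 1 array. With only the groups compared in the model both calls were lost (adjusted p = 0.060 for PSBW and 0.072 for AT2G14880), as were those of AT1G62510, AT1G76960 and UGT87A2. AT1G62510 (1.62) and AT1G76960 (0.94) were higher, with calls lost without any of the 3 ago1-11 arrays and also without ago1-10 replicates 2 or 3 for the first and any ago1-10 array for the second. UGT87A2 was lower (-1.30), at 27.8, 22.3 and 31.9 against 73.3, 109 and 40.2, and was lost without ago1-11 replicate 2 or ago1-10 replicates 1 or 2. With 16 added the calls of AT1G62510 and AT1G76960 were lost, and with no filter that of AT1G76960. The other 5 lower members are not in the annotation. Members called higher were 2 without ago1-11 replicate 1 or 2 and 1 without ago1-10 replicate 2. Members called lower were 3 without ago1-11 replicate 2 or ago1-10 replicate 1 and 2 without ago1-10 replicate 2.

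Between 9 and 21 days, 15 members rose in ago1-10, 9.93%, beside 4.34% of all probe sets, and 4 fell, 2.65%, beside 5.58%, with a median of 0.13 over the members and -0.03 over all. Of 7 green-tissue markers 2 fell in the same comparison, and their part in it was not tested. This comparison shares the 9-day ago1-10 arrays with that between the alleles. The 21-day ago1-11 arrays all carry strain code MR57 and the 9-day ones 4 codes, so age and code cannot be fully told apart in that allele. In ago1-11 5 rose, 3.31%, beside 1.19%, and 0 fell, beside 1.26%, with a median of 0.09, beside -0.05 over all. Past an unadjusted p of 0.05 in either direction were 29 members, 19.2%, beside 14% of all. MSRB5 rose in both, from 68.7, 70.3, 43.7 and 78.6 to 234, 191 and 134 in ago1-10 (1.49, limma, adjusted p = 0.0014) and from 41.1, 42.4, 65.2 and 60 to 194, 207 and 98.7 in ago1-11 (1.61, adjusted p = 0.002). The ages did not overlap in either allele, and both calls held without any 1 array. In the accessions, MSRB5 read 74.8, 66.4 and 76.1 and then 52.6, 28.7 and 32.3 in Ler, lower at 21 days, and 276, 176 and 152 and then 297, 187 and 161 in Col, where the ages overlapped.

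ECS1 rose in both alleles too (1.98 in ago1-10, limma, adjusted p = 0.028, and 2.50 in ago1-11, adjusted p = 0.015). The first call was lost without ago1-10 replicates 2 or 3 at 9 days or 1 or 3 at 21 days, and the second without ago1-11 replicate 4 at 9 days or 1 at 21 days. UGT87A2 rose in ago1-10 (1.5, limma, adjusted p = 0.0032), and AT2G14880 fell there (-1.22, adjusted p = 3.9e-04), each without loss when any 1 array was left out. AT1G12010 (2.41), AT2G05540 (2.26), AT1G09500 (1.81), MCCA (1.32) and AT2G16530 (0.86) rose in ago1-10, and AT2G17240 (-1.27) and AT4G02530 (-1.04) fell. Of these, AT1G12010 and AT2G17240 lost the call without 21-day replicate 2, and MCCA without 21-day replicate 1. AT2G05540 lost it without 9-day replicate 3 or 21-day replicates 1 or 2, and AT2G16530 without 9-day replicates 3 or 4 or 21-day replicates 1 or 2. AT1G09500 lost it without 9-day replicates 2, 3 or 4 or 21-day replicates 1 or 2. AT4G02530 lost it without 9-day replicates 1, 3 or 4 or 21-day replicates 1 or 2. With only the groups compared in the model the calls of AT1G12010 (adjusted p = 0.061), AT2G05540, ECS1, AT2G16530, AT1G09500 and AT4G02530 in ago1-10 were lost. With 16 added those of MCCA (adjusted p = 0.063), AT2G05540, AT1G09500 and AT4G02530 were lost, with strain code MR44 only those of AT2G16530, AT1G09500 and AT4G02530, with no filter those of AT1G09500 and AT4G02530, and with trimmed mean scaling that of AT4G02530. AT2G16660 rose in ago1-11 (1.80), a call lost without 9-day replicate 4 or 21-day replicates 2 or 3, and with only the groups compared. Members that rose in ago1-10 were 9 without 21-day replicate 1. Those that fell were 7 without 21-day replicate 1 and 2 without 21-day replicate 2 or 9-day replicate 3. Members that rose in ago1-11 were 3 without 9-day replicate 4 or 21-day replicate 1, and 1 fell without 9-day replicate 3 or 21-day replicate 1.

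**Figure D5:**
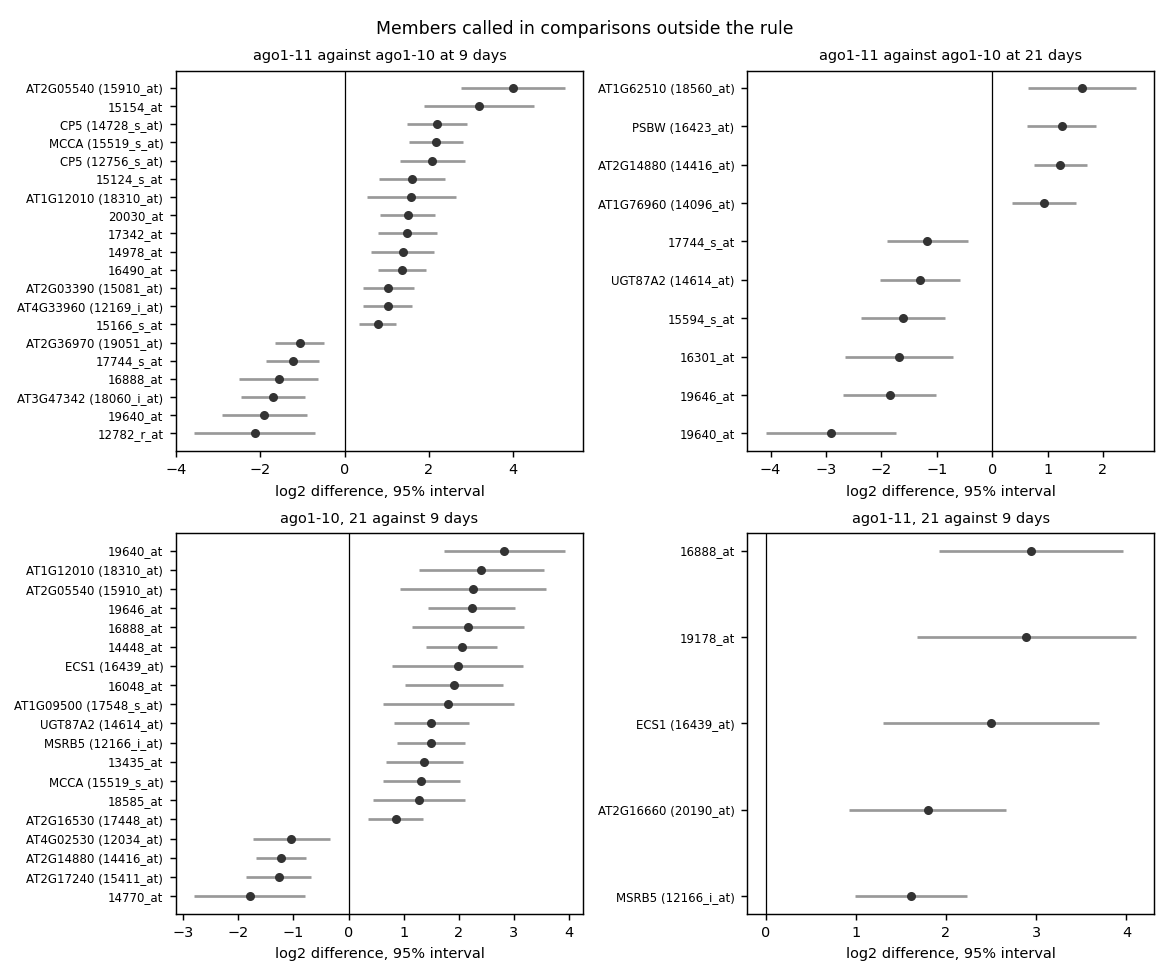
Log2 difference (horizontal axis) with its 95% interval from limma for each member called in 4 comparisons outside the rule, named by gene and probe set. MSRB5 and ECS1 appear in both comparisons of age (lower panels), and AT2G05540 has the largest difference between alleles at 9 days, 3.99.

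From 21 to 35 days in ago1-10, 0 members were called by limma in either direction, beside 0.0164% of all higher and 0.0327% lower, and 18 members, 11.9%, passed an unadjusted p of 0.05, beside 8.05% of all. The median was -0.03 over the members and -0.02 over all. The 21-day arrays carry strain code MR44 and the 35-day arrays MR49, so age and code cannot be told apart. Without 35-day replicate 1, 1 member was called lower.

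None of 126 genes on lists for glucosinolates, resistance genes, defence, flowering, jasmonate, heat shock, cold and drought, small RNA machinery, senescence and 3 tissues was a member, and 23 of the 126 were measured. The lists with the most measured genes were green tissue (7 of 9), cold and drought (4 of 8) and flower and pollen (4 of 9). The NLR list had 0 of 13 measured, so AT4G19500 and AT1G61190 could not be set beside other listed resistance genes.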

How the data were processed

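Each deposited value is the linear signal intensity of a probe set. The submitters' processing notes name MAS5, and neither its version nor its scaling target is given in the sources used here. Readings with exactly 3 decimals (7913 of 305139, in 491 probe sets) were taken as values of 1000 and more written with a point between digit groups and multiplied by 1000. Probe sets above 12.2, the 40th percentile of the values before scaling, on at least 3 arrays were kept (6112). Arrays were scaled to a common median of 19.1, and log2 was taken after adding 1.2. The number of arrays limits the precision.

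Groups follow the genotype and age in the labels. One limma model (3.58.1, R 4.3.3, eBayes with trend) held all 37 arrays with 11 group means, and calls were made where the Benjamini-Hochberg adjusted p over all 6112 was under 0.05. The p-values measure the spread between these arrays. The script was tested on simulated data. Other steps used pandas 2.3.3, numpy 2.4.6 and matplotlib 3.10.9 under Python 3.11.15. The platform annotation gives 1 gene for 3794 probe sets and several for 70, and does not list 4383. Loci, symbols, gene types and chromosomes come from the TAIR10.1 gene table, where 3784 matched.

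The members and lists were chosen with earlier results of these data known. The text names the 30 members with 1 gene and the largest mean difference, up to 8 called members per comparison and direction, and 2 genes on each side of the rule's limit. Other genes named, among them UGT87A2 and UGT71C2 beside other glycosyltransferases, AT1G21400, AT1G78820, AT4G02850, AT1G55450, AT1G03746, LOV1, AT1G61180, genes with a second probe set and members of the stretch on chromosome 1, were chosen after their values were seen, as was the test of allele with age, with its alternatives. Alternatives were quantile and trimmed mean scaling, other pseudocounts, no filter, only the groups compared, strain code MR44 only, a replicate block, the other Ler set and each array left out. The same-numbered dcl1-9 and WT21 arrays were not taken as pairs, since their deviations correlated at 0.18, 0.11 and 0.06.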

Additional observations from a re-analysis of the deposited data

Results flagged for a closer look

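Among the 30 members named for their size, 120 groups of 4 arrays were checked for a value far from the other 3. Such values were found 12 times, where chance gives about 1 in 20 for normally distributed values. The check used scaled signal without the log, which need not be so distributed, so that rate is a rough guide only. Several of the 12 values lie near background. In 9-day ago1-10 the high arrays were 8.44 for AT4G07820, 31.5 for M17, 7.80 for AT4G19500, 13.2 for AT1G12010 and 27.5 for AT2G03390. In 9-day ago1-11 they were 7.01 for AT4G07820, 3.13 for AT4G01130, 4.73 for AT1G65190 and 155 for AT4G33960, and 1 array of AT2G03980 was low at 1.27. The high array of M17 in dcl1-9 read 0.54, where the others read 0.25 to 0.29. AT4G33960 read 168 on Ler (2) replicate 1 and 75.4 to 86.5 on the other 3 arrays of that group.

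The difference between ago1-11 and ago1-10 in MCCA moved by -2.40 on the log2 scale between 9 and 21 days, by the test of that change itself in the limma model (adjusted p = 0.026). At 9 days the 4 ago1-11 arrays lay above the 4 ago1-10 arrays, and at 21 days the groups overlapped.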

How the results depend on the processing

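The number of members was 84 with 16 added before the log and 80 with a limit of 1.5. It was 148 with quantile scaling, 128 with trimmed mean scaling, 152 with 1 added, 157 with no filter and 118 with Ler (2) in place of Ler (1), and 144 to 169 with 1 array left out. Of 30 named calls, 10 kept their call under every alternative run, 20 lost it at least once and 0 changed direction.

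Members higher in dcl1-9 than in Ler (2) were 2 with trimmed mean scaling, 4 with only the groups compared and 1 to 2 with 1 array left out, and members lower were 2 with 16 added, 2 with only the groups compared and 0 to 1 with 1 array left out. With the WT21 and caf21 numbers as a replicate block, 1 member was higher and 0 lower, and MSRB5 kept its call (1.45). The numbers do not pair the arrays by their correlations, so the block is given here only.

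Between ago1-11 and ago1-10 at 9 days, members lower were 3 with 16 added, 3 with only the groups compared and 2 to 8 with 1 array left out. At 21 days members higher were 7 with quantile scaling, 2 with 16 added, 0 with only the groups compared and 1 to 5 with 1 array left out, and members lower were 2 with only the groups compared and 2 to 6 with 1 array left out. From 9 to 21 days, members that rose in ago1-10 were 9 with only the groups compared and 9 to 19 with 1 array left out, and those that fell 2 to 7. In ago1-11 members that rose were 3 with only the groups compared and 3 to 6 with 1 array left out, and those that fell 0 to 1. From 21 to 35 days those that fell were 0 to 1. For the test of allele with age, members called higher at 21 days were 1 with quantile scaling, 1 with trimmed mean scaling and 0 to 2 with 1 array left out, and members called lower were 2 with quantile scaling, 2 with trimmed mean scaling, 0 with only the groups compared and 0 to 2 with 1 array left out. With only the groups compared, fewer arrays estimate the spread and those of the rule do not enter it. The cause of the other shifts was not tested. Where Ler signals lie under 12.2, the size of a difference cannot be read closely.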
